A study of Arabidopsis thaliana with 22 samples.

Results

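The mitochondrion-encoded genes of Arabidopsis thaliana leaves were taken as every row of the leaf count table whose locus identifier begins with ATMG, the prefix of the mitochondrial genome. There were 94 such genes among 23318 in the table. They were compared between leaves of a line overexpressing AITF1 (OXAITF1) and wild-type leaves (WT, accession Col-0), both from plants aged 3 weeks and grown in soil, with 2 libraries per genotype. The study concerns 2 trihelix factors, DNA-binding proteins of a family found in plants, and their joint part in defence. Its seedling table held 0 ATMG rows, so no seedling value enters. The labels do not give the promoter of the overexpression construct, whether the line is a single insertion event, or whether the 2 libraries of a genotype came from separate plants. Every p-value therefore reflects how far libraries of a genotype lay apart, and that distance may be technical.

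The plant mitochondrial genome carries only a small part of the genes the organelle uses: some subunits of the respiratory complexes and of ATP synthase, proteins of cytochrome c maturation, a set of ribosomal proteins, and the organelle's own ribosomal and transfer RNAs. All other parts, including the RNA polymerases, splicing factors and replication proteins of the organelle, are made from nuclear genes and imported. Mitochondrial transcripts of plants mostly lack stable poly(A) tails, so how much of a library they fill depends on how RNA was selected for it, which the labels do not give. A near-complete copy of the mitochondrial genome lies in the nuclear genome of this accession, on chromosome 2, and reads from the 2 copies are hard to tell apart.

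Names for the 94 genes came from notes in the reference annotation, which mention 37 of them, 19 with a function. Of those 19, 4 belong to ATP synthase, 3 to complex I, 3 to complexes III and IV, 2 to cytochrome c maturation and 4 to the ribosome, and 3 carry other descriptions. A further 18 are noted without a function and 57 are not mentioned. Any class may have further members among these genes, so counts by class cover noted genes alone. Those 57 held 94.2 and 94.6% of all ATMG counts in OXAITF1 libraries and 97.2 and 97.4% in WT libraries, so most of what follows concerns genes known here only by identifier.

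The 4 libraries held 17342180 and 19395413 counts in OXAITF1 and 15292308 and 16641940 in WT. AT3G11100, annotated as a sequence-specific DNA-binding factor and taken as the check of the overexpression label because the reference names no locus AITF1, had a level of 2954 and 3839 CPM in OXAITF1 and 14.4 and 14.4 CPM in WT (CPM, counts relative to a common library size, here scaled by TMM factors). ASR3 (AT2G33550), the paired factor, had 7.72 and 7.08 CPM in OXAITF1 and 7.55 and 13.8 CPM in WT, with overlapping groups. TMM factors, which rescale each library so that most genes centre on no change, were 1.19 and 1.12 in OXAITF1 and 0.876 and 0.855 in WT. With library totals in their place the median log2 fold change of all genes tested was 0.46, against 0.05 with TMM, so the choice of scale matters to every fold change given here. All 5 leaf mesophyll markers examined were called lower in OXAITF1 (median log2 fold change -1.69). Of all genes tested, 10.4% were called lower and 9.36% higher. Of 5 senescence markers, only 4 were in the table. All 4 were tested and 2 were called higher, SAG13 and NYE1. SAG13 had 27.2 and 4.97 CPM in OXAITF1 against 0.822 and 0.492 in WT. It passed the filter on low counts only through OXAITF1, so its higher level there is built into its selection. NYE1 had 23.6 and 31.5 CPM in OXAITF1 against 11.0 and 12.9 in WT. NAC6 had a log2 fold change of 2.08 (adjusted p 0.0649 in edgeR's quasi-likelihood test). WRKY53 had 33.7 and 78.1 CPM in OXAITF1 against 118 and 64.5 in WT, with overlap. Its log2 fold change was -0.71 (adjusted p 0.355 in the same test). Flower, root, seed and pollen markers were too low to test or were not in the table. Fewer cells of a type and less RNA per cell cannot be told apart in these whole-leaf samples, and the part of leaf condition in the mitochondrial results was not tested.

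Mitochondrion-encoded genes took a small share of every library, and their sum differed less between the genotypes than most of its parts. The 94 genes together held 8389 and 8241 counts in OXAITF1 and 4100 and 5977 in WT. This was 0.0484 and 0.0425% of all counts in OXAITF1 and 0.0268 and 0.0359% in WT, or 0.0454% ± 0.00416 and 0.0314% ± 0.00644 (SD, n = 2 each), a ratio of 1.45. Both OXAITF1 libraries lay above both WT libraries. The two-sided exact permutation p was 0.333, which is the smallest that 2 libraries against 2 can give. On the TMM scale the difference was not kept: the sum was 408 and 379 CPM in OXAITF1 and 306 and 420 CPM in WT, so that the groups overlapped, with a ratio of 1.08.

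A single gene held much of this sum and lay lower in OXAITF1. ATMG00020 had 2230 and 2236 counts in OXAITF1 and 2243 and 3544 in WT. Its share of all ATMG counts was 26.6 and 27.1% in OXAITF1 and 54.7 and 59.3% in WT. It was thus the largest single part of the ATMG counts in all 4 libraries, and a far larger one in WT. Its level was 108 and 103 CPM in OXAITF1, against 168 and 249 CPM in WT. The groups did not overlap, and the spread in WT was wide. The log2 fold change was -0.98 ± 0.24 (SE) with an adjusted p of 0.0510 in edgeR's quasi-likelihood test with Benjamini-Hochberg adjustment, just outside the threshold of 0.05 used for a call. With RLE size factors the adjusted p was 0.0492 and with DESeq2 it was 0.00353, and over all alternatives it ran between 0.00353 and 0.259, always with a lower level in OXAITF1.

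ATMG01390, the gene with the next most counts, did not follow it. It had 75.1 and 83.5 CPM in OXAITF1 and 68.7 and 66.5 CPM in WT. Both OXAITF1 values were the higher, by little, and the log2 fold change of 0.23 ± 0.14 had an adjusted p of 0.282 in the edgeR test. Its share of ATMG counts was 18.4 and 22.0% in OXAITF1 and 22.4 and 15.8% in WT, with overlap. With library totals in place of TMM its log2 fold change was 0.65 at an adjusted p of 0.0262, and over all alternatives the adjusted p ran between 0.0262 and 0.662.

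The other 92 genes were in sum higher in OXAITF1. Their counts summed to 4612 and 4190 in OXAITF1 and 937 and 1487 in WT. They filled 0.0266 and 0.0216% of the OXAITF1 libraries and 0.00613 and 0.00894% of the WT libraries, a ratio of 3.20, which was 2.39 on the TMM scale. Of all ATMG counts they took 55.0 and 50.8% in OXAITF1, against 22.9 and 24.9% in WT. This sum includes every one of the 92 genes, whether or not it passed the filter on low counts. The exact permutation p for their library share was again 0.333, the smallest possible. ATMG00020 thus held the largest part of the ATMG counts of WT leaves, and the other 92 genes together that of OXAITF1 leaves. No source used here says which ATMG rows are ribosomal RNA, and the part of ribosomal RNA in this contrast was not tested.

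**Figure D1:**
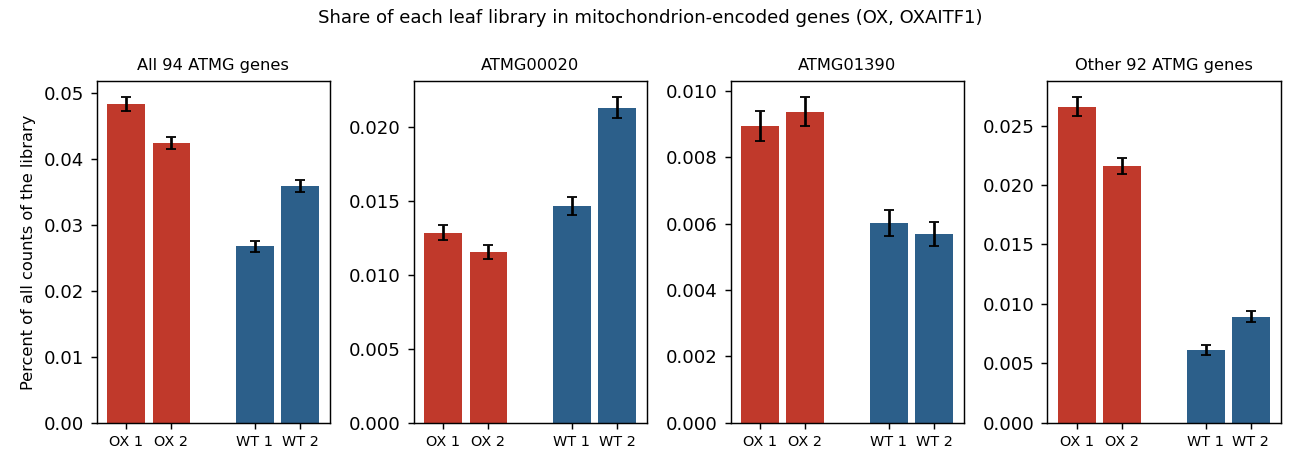
Bars give the percent of all counts of each leaf library (y axis, each panel with its own range from 0) in all 94 mitochondrion-encoded genes, in ATMG00020, in ATMG01390 and in the other 92, for OXAITF1 replicates 1 and 2 (red, OX) and WT replicates 1 and 2 (blue). Whiskers are exact 95% binomial intervals, which cover counting error only. ATMG00020 was the lower in OXAITF1 at 0.0129 and 0.0115% against 0.0147 and 0.0213%, while the other 92 genes were the higher.

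Tests per gene were limited by counts. Of the 94 genes, 40 passed the filter on low counts, which asks for about 0.589 CPM in at least 2 libraries. Of these, 12 were called higher in OXAITF1 and 0 were called lower, at an adjusted p under 0.05 in edgeR's quasi-likelihood test, where 19.8% of all 18639 genes tested were called, 9.36% higher and 10.4% lower. At an unadjusted p under 0.05 there were 23 of the 40, against 38.9% of all genes tested. DESeq2 called 10 higher and 1, ATMG00020, lower, where 11.1% and 13.0% of all genes were called. But 17 of the 40 passed the filter only through their OXAITF1 libraries, so that a higher level in OXAITF1 is built into their selection. Among the 23 that also reached the minimum in both WT libraries, 8 were called higher and 0 lower, against 8.37% called higher among all genes of that kind. In these 23 the log2 fold change ran between -0.98 and 3.36 with a median of 1.09, and the median of all genes of that kind was -0.0018. Their levels did not overlap in 18 cases, 16 with OXAITF1 above and 2 with OXAITF1 below (ATMG00020 and ATMG00030), where 33.2% of all genes of that kind lay wholly above and 34.4% wholly below. Of the 17, 4 were called higher (ATMG00180, ATMG00480, ATMG00513 and ATMG00720), which is 23.5%, the same as the 23.5% called higher among all 1217 tested genes not at the minimum in both WT libraries.

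The calls rest on few libraries. Without WT replicate 1, or without WT replicate 2, no mitochondrion-encoded gene was called in the edgeR test and the same held for every other gene of the table. An unadjusted p under 0.05 was then found for 11 of 51 members without WT replicate 1, close to the 20.8% of all genes, and for 20 of 50 without WT replicate 2, against 20.6%. Without OXAITF1 replicate 1, 11 of 40 were called higher and 1 lower, where 15.6% and 16.9% of all genes were, and without OXAITF1 replicate 2, 11 of 46 were called higher and 2 lower, where 15.0% and 16.9% were. A fit with the replicate number as a block also gave 0 calls over all genes, with 22 of 40 mitochondrion-encoded genes at an unadjusted p under 0.05, against 32.5% of all genes.

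Among genes that the notes place in the ATP synthase, which makes ATP from the proton gradient, 1 of 2 tested was called higher. ATMG00480, described as subunit 8 of its membrane part, had 22 and 43 counts in OXAITF1 and 2 and 4 in WT, or 1.07 and 1.98 CPM against 0.149 and 0.281 CPM. All OXAITF1 values lay well above WT, with a log2 fold change of 2.77 ± 0.63 and an adjusted p of 0.0452 in the edgeR test, a call that no longer held when no filter was applied (adjusted p 0.0514, with 0.0181 to 0.257 over all alternatives). It passed the filter only through its OXAITF1 libraries, so its higher level there is built into its selection. ATMG01090, described as subunit 9, the ring-forming subunit, had 4.03 and 2.71 CPM in OXAITF1 and 2.76 and 2.60 CPM in WT. These groups overlapped and the log2 fold change of 0.33 ± 0.32 had an adjusted p of 0.491. Both other noted members were too low to test. ATMG01080, also described as subunit 9, had 6 and 8 counts in OXAITF1 and 2 and 4 in WT. ATMG01190, described as subunit 1, had 8 and 10 against 2 and 1. Together these 4 noted genes summed to 5.78 and 5.52 CPM in OXAITF1 and 3.21 and 3.23 CPM in WT.

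The 2 genes noted for cytochrome c maturation, the pathway that attaches haem to cytochromes of the c type, had few counts. Only 1 of them could be tested. ATMG00180, a cytochrome c biogenesis protein, had 34 and 26 counts in OXAITF1 and 3 and 5 in WT, or 1.65 and 1.20 CPM against 0.224 and 0.352 CPM. The OXAITF1 libraries stood several-fold above WT, with a log2 fold change of 2.27 ± 0.51 and an adjusted p of 0.0438. Like ATMG00480 it entered the test only through OXAITF1, and so did ATMG00720. The call was lost with DESeq2 (adjusted p 0.0638) and with no filter (0.0573), as was that of ATMG00720 among the undescribed genes (0.115 and 0.0698). Over all alternatives the adjusted p ran between 0.0229 and 0.265 for ATMG00180 and between 0.0264 and 0.287 for ATMG00720. ATMG00960, a cytochrome c assembly protein, had 14 and 9 counts in OXAITF1 and 2 and 1 in WT and was not tested.

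Genes that the notes place in the respiratory chain itself were sparsely counted, and 0 of the 2 that could be tested were called. Further genes of these complexes may stand among those without a note, so this is no result on the chain as a whole. Under complex III, which passes electrons to cytochrome c, ATMG00590, noted as a cytochrome b/b6 protein, had 33 and 52 counts in OXAITF1 and 10 and 16 in WT. Under complex IV, the terminal oxidase, ATMG01280, noted as a subunit II-like transmembrane domain, had 23 and 21 counts in OXAITF1 and 8 and 3 in WT. The notes do not say whether either gene is the full subunit. On the CPM scale neither pair of groups overlapped, but log2 fold changes of 1.09 ± 0.43 and 1.36 ± 0.60 had adjusted p-values of 0.140 and 0.171 in the edgeR test. ATMG01280 passed the filter only through OXAITF1, so its higher level there is built into its selection. The third, ATMG00730 (subunit 3 of cytochrome c oxidase), had 3 and 1 counts in OXAITF1 and 1 and 0 in WT. In complex I, the entry point for electrons from NADH, ATMG01275 (subunit 1) had 10 and 14 counts in OXAITF1 and 0 and 3 in WT, ATMG01320 (subunit 2) had 1 and 7 against 0 and 0, and ATMG00990 (subunit 3) had 2 and 4 against 2 and 3. None of these 3 passed the filter.

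The 4 genes noted as ribosomal proteins gave no call. ATMG00290 (S4) had 0.632 and 1.06 CPM in OXAITF1 and 0.149 and 0.281 CPM in WT, and ATMG00980 (S12) had 0.826 and 0.874 CPM against 0.523 and 0.352 CPM. Both were higher in each OXAITF1 library than in each WT library, with log2 fold changes of 1.93 ± 0.64 and 0.95 ± 0.48 and adjusted p-values of 0.0978 and 0.215 in the edgeR test. Both passed the filter only through OXAITF1, so a higher level there is built into their selection. ATMG00210 (L5) and ATMG01270 (S7) had 1 count each in OXAITF1 replicate 1 and 0 in every other library. Of the 3 genes with other descriptions, ATMG00560, a nucleic acid-binding protein with an OB-fold-like domain, had 59 and 28 counts in OXAITF1 and 9 and 9 in WT. Its log2 fold change was 1.66 ± 0.55 (edgeR adjusted p 0.0978), and it too passed the filter only through OXAITF1. ATMG00280, a stretch resembling the catalytic domain of the Rubisco large chain, had 16 and 10 against 1 and 2, and ATMG01110, resembling a mitovirus RNA polymerase, had 8 and 6 against 0 and 2.

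The remaining 10 called genes are among those that the reference does not describe, so their class is not known here. They include the largest changes. ATMG00110 had 286 and 152 counts in OXAITF1 and 10 and 18 in WT, or 13.9 and 6.99 CPM against 0.747 and 1.27 CPM. The 2 OXAITF1 libraries differed widely from each other and still lay far above WT, with a fold of 10.3 (log2 3.36 ± 0.50, adjusted p 0.0216). ATMG00090, with the most counts of the called genes, had 899 and 867 in OXAITF1 and 59 and 108 in WT, or 43.7 and 39.9 CPM against 4.41 and 7.59 CPM. Here the OXAITF1 libraries were close to each other, and the fold was 6.94 (log2 2.80 ± 0.29, adjusted p 0.0158). It alone supplied 10.7 and 10.5% of the ATMG counts of OXAITF1 leaves and 1.44 and 1.81% of those of WT leaves.

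ATMG01360 had 442 and 319 counts in OXAITF1 and 25 and 50 in WT, or 21.5 and 14.7 CPM against 1.87 and 3.52 CPM. ATMG00080 had 363 and 364 against 27 and 48, or 17.6 and 16.7 CPM against 2.02 and 3.37 CPM. In both, every OXAITF1 library was over 4 times every WT library on the TMM scale, and the folds were 6.68 and 6.35 (log2 2.74 ± 0.39 and 2.67 ± 0.30, adjusted p 0.0206 and 0.0158 in the edgeR test). ATMG00720 was the weakest in counts, with 17 and 12 in OXAITF1 and 1 and 1 in WT, so that its log2 fold change of 3.13 ± 0.73 (adjusted p 0.0485) leans on single counts. The other 5 were ATMG00513 (log2 fold change 2.54), ATMG00060 (2.53), ATMG00510 (1.86), ATMG01170 (1.74) and ATMG00070 (1.35).

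Of the 12 called genes, 5 carry identifiers that follow one another, ATMG00060, ATMG00070, ATMG00080, ATMG00090 and ATMG00110. The one between them, ATMG00100, had 2 counts over all libraries and was not tested. Shortly before them in identifier order come ATMG00020 and ATMG00030, which had the 2 lowest fold changes of the 40. ATMG00030 had 11.8 and 13.6 CPM in OXAITF1 and 17.0 and 22.3 CPM in WT, without overlap, and a log2 fold change of -0.63 ± 0.20 with an adjusted p of 0.0916. The run was noticed after the values were seen, positions along the genome were not used here, and it was not tested.

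**Figure D2:**
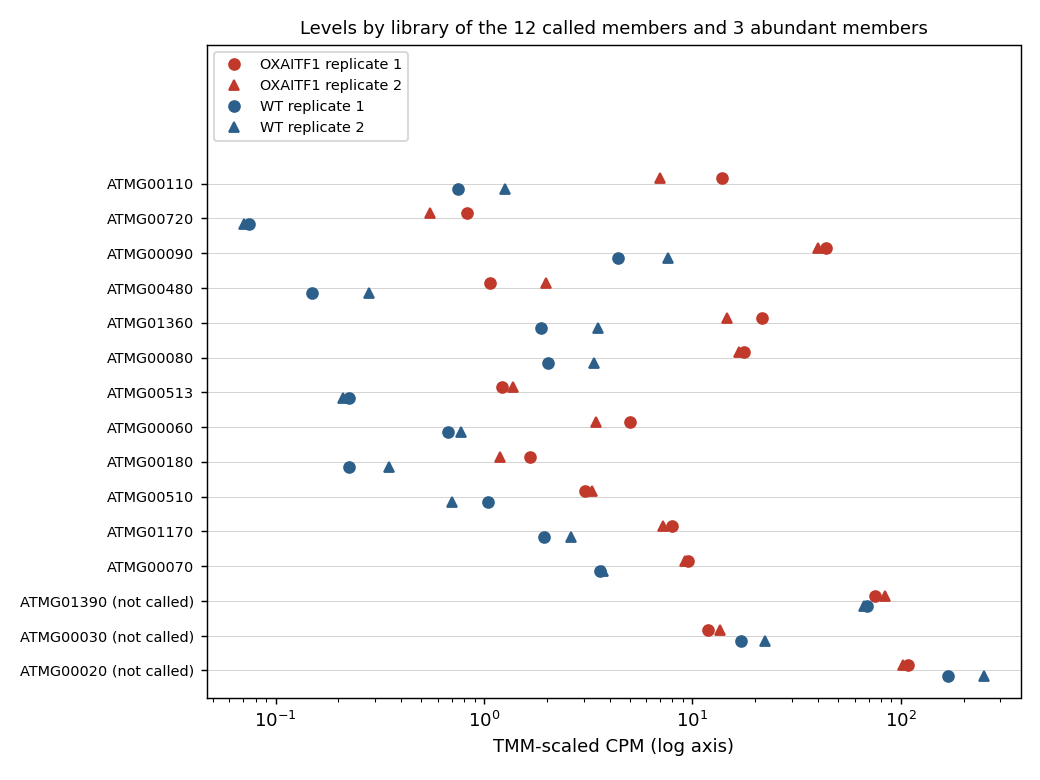
Points give the level of each gene in each library in TMM-scaled CPM (x axis, logarithmic) for the 12 called genes and, below them, ATMG01390, ATMG00030 and ATMG00020, which were not called. Within a row the OXAITF1 points (red) are drawn above the WT points (blue), circles are replicate 1 and triangles replicate 2. In the 12 called genes all red points lie to the right of all blue ones, and in ATMG00030 and ATMG00020 to the left.

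The 54 genes that were not tested held few counts, 261 and 216 in sum in OXAITF1 and 34 and 73 in WT. Both WT libraries had 0 counts for 23 of the 94 genes, and both OXAITF1 libraries had 0 for 2 of them. The OXAITF1 libraries were the deeper, with 17342180 and 19395413 counts in all against 15292308 and 16641940 in WT. The share of all genes at 0 in both libraries of a genotype was not taken, so nothing is concluded from the 23 and the 2. Of the 23, 10 had more than 3 counts over the OXAITF1 libraries. With a floor of 3 counts over the WT group, the largest lower bounds were those of ATMG00010, ATMG00260 and ATMG01410. Each was at least 2.61-fold higher in OXAITF1 on the TMM scale. These genes were picked for their 0 counts in WT, so a higher level in OXAITF1 is built into their selection. Over all 94 genes the CPM levels lay wholly above WT in 56 and wholly below in 2, and overlapped in 36, where 33.2% of all 23318 genes of the table lay wholly above and 27.6% wholly below.

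Set against the mitochondrial pool instead of the whole library, the picture of single genes changed little. With the total ATMG count as library size, 13 of the 40 tested genes were called higher and 1 lower, where 7.98% and 11.7% of all genes tested were called. The 13 were the 12 genes called before and ATMG01350, which had 26 and 22 counts in OXAITF1 and 0 and 6 in WT and which the whole-library fit did not call (adjusted p 0.162). Of the 13, 5 passed the filter only through OXAITF1 (ATMG00180, ATMG00480, ATMG00513, ATMG00720 and ATMG01350), 29.4% of the 17 members of that kind against 38.0% of all such genes. The other 8 were among the 23 at the minimum in both WT libraries, where 5.89% of all such genes were called higher. The gene called lower was ATMG00020, with a log2 fold change of -1.09 ± 0.40 and an adjusted p of 0.0351 in the edgeR test, which ran between 1.1e-05 and 0.455 over the alternatives. The log2 fold changes of the 12 against the ATMG total ran between 1.21 for ATMG00070 and 3.25 for ATMG00110. As shares of the ATMG total, 51 of the 94 genes lay wholly above WT, 6 wholly below and 37 overlapped. Set against the same total, 23.1% of all genes of the table lay wholly above and 28.0% wholly below.

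That result depends on ATMG00020, since it sets much of the total. With it left out of the total, 5 genes were called higher and 4 lower, and with ATMG01390 left out as well 4 were called higher and 6 lower. Of all genes tested, 3.44% were then called higher and 51.0% lower with the first total, and 2.55% and 60.5% with the second. With both left out, ATMG01390 had a log2 fold change of -1.07 with an adjusted p of 0.0366, against 0.08 with all genes in the total (adjusted p 0.927), and over the alternatives on this scale its adjusted p ran between 0.0297 and 0.994. Without either WT library 0 genes were called on this scale and an unadjusted p under 0.05 was about as frequent as in the whole table, at 10 of 51 members against 19.4% without WT replicate 1 and 12 of 50 against 23.6% without WT replicate 2. Without OXAITF1 replicate 1, and likewise without replicate 2, 5 were called higher and 0 lower, where 3.48% and 4.09% of all genes were called higher.

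**Figure D3:**
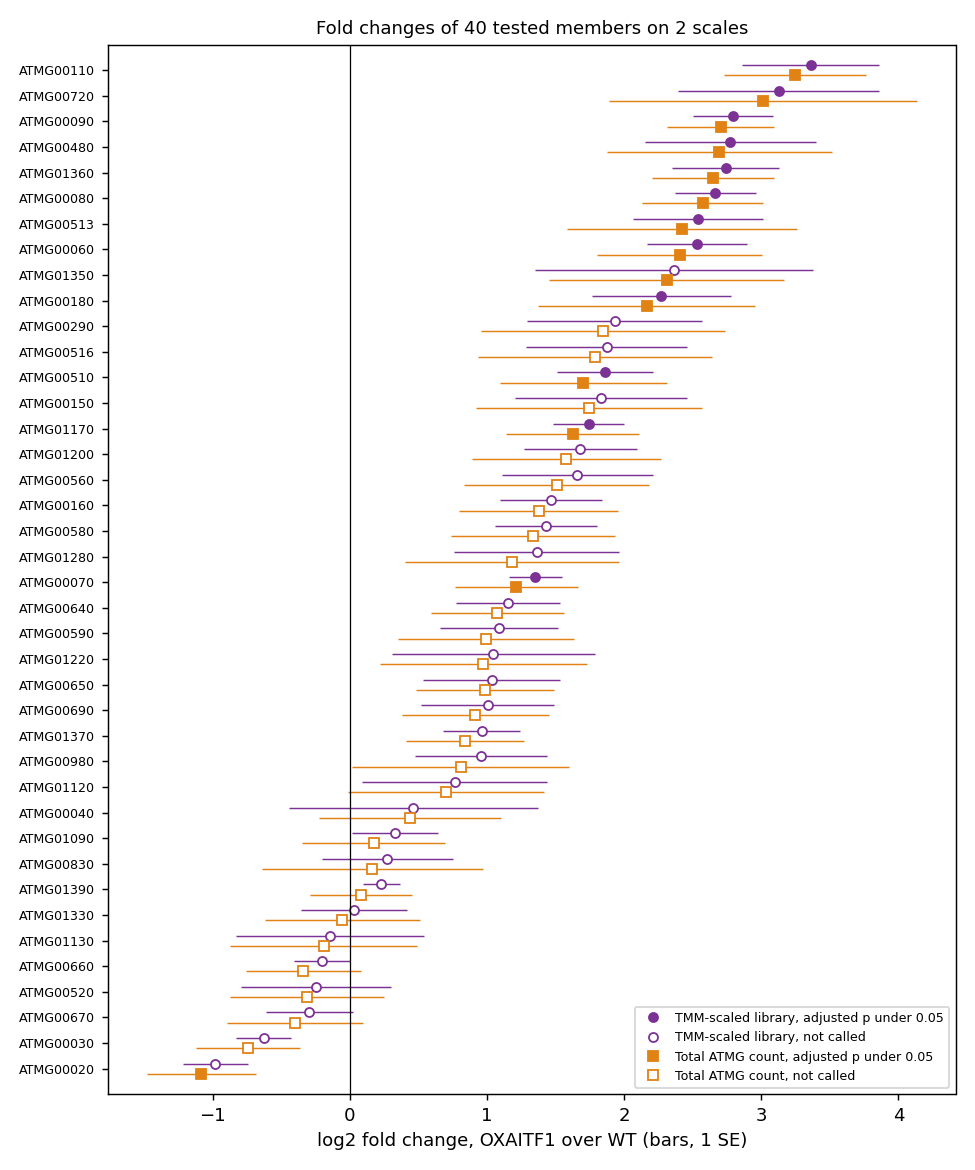
Log2 fold changes of OXAITF1 over WT (x axis) for the 40 tested genes (rows, highest at the top), with bars of 1 SE. Circles are scaled to the whole library with TMM factors and squares to the total ATMG count, and filled symbols have an adjusted p under 0.05 in edgeR's quasi-likelihood test. The 2 scales give nearly the same order, with 34 circles and 33 squares above 0, and ATMG00020 and ATMG01350 are filled on the ATMG scale alone.

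The copy of the mitochondrial genome on chromosome 2 gave rows whose sum was higher in OXAITF1 as well. The nuclear identifiers taken for that region, the 71 rows from AT2G07663 to AT2G07785, include ABCC13 and MCM5, which are nuclear genes of their own. Without those 2, the rows filled 0.0106 and 0.00933% of the OXAITF1 libraries and 0.00371 and 0.00467% of the WT libraries, a ratio of 2.37 (1.77 on the TMM scale). Of 22 tested, 6 were called higher and 0 lower, where 9.36% and 10.4% of all genes were, but 4 of the 6 (AT2G07687, AT2G07725, AT2G07733 and AT2G07751) passed the filter only through OXAITF1. Of the 11 at the minimum in both WT libraries, 2 were called higher, AT2G07698 and AT2G07717, against 8.37% of all genes of that kind, and their median log2 fold change was 0.35. How the authors' counting treated reads that match both copies is not given in the sources used here. A read of mitochondrial origin may therefore stand in either row, and the ATMG counts and the AT2G07 counts are uncertain as measures of their own locus.

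The nuclear rows held more counts than some of the mitochondrial rows they resemble. AT2G07698, annotated as the alpha subunit of the F1 part of ATP synthase and matched by its note to ATMG01190, had 267 and 342 counts in OXAITF1 and 25 and 38 in WT, or 13.0 and 15.7 CPM against 1.87 and 2.67 CPM. The 2 groups were far apart, with a log2 fold change of 2.65 ± 0.27 (adjusted p 0.0154), while ATMG01190 itself had at most 10 counts in a library. AT2G07687, the match of ATMG00730, had 14 and 19 counts in OXAITF1 and 0 and 1 in WT, and AT2G07751, the match of ATMG00990, had 17 and 13 against 1 and 1. AT2G07725, the match of the ribosomal protein gene ATMG00210, had 14 and 13 against 0 and 0, at least 5.87-fold higher on the TMM scale with a floor of 3 counts over the WT group. All 3 were called higher, but passed the filter only through OXAITF1, and the 3 mitochondrial rows were too low to test. Over the 26 ATMG genes whose matched nuclear row is in the table, among them rows past AT2G07785 such as AT2G07798 and AT2G07808, the nuclear rows summed to 730 and 700 counts in OXAITF1 and 142 and 233 in WT, and the ATMG rows to 379 and 328 against 107 and 138.

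Sums of some nuclear rows that are not messenger RNA were likewise higher. The 4 nuclear ribosomal RNA rows filled 0.166 and 0.231% of the OXAITF1 libraries and 0.0852 and 0.0759% of the WT libraries. Nuclear transfer RNA rows, 53 of them, summed to 223 and 203 counts in OXAITF1 and 49 and 77 in WT, and 48 small nucleolar RNA rows to 815 and 698 against 334 and 339. In each set both OXAITF1 libraries lay above both WT libraries as a share of the library. With library totals as the scale, 28.4% of all genes tested were called higher. Nuclear rows of long non-coding RNA and of pseudogenes were higher as library shares too, at ratios of 2.22 and 1.68. Chloroplast-encoded genes, which are transcribed from the other organelle genome, went the opposite way. They filled 1.99 and 2.33% of the OXAITF1 libraries against 3.12 and 3.22% of the WT libraries. Of 108 tested on the TMM scale, 48 were called lower and 0 higher, where 10.4% of all genes were called lower and 9.36% higher. The part of RNA selection and library preparation in the mitochondrial result was not tested. With the nuclear ribosomal RNA rows taken out of the table the same 12 genes were called higher and 0 lower.

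**Figure D4:**
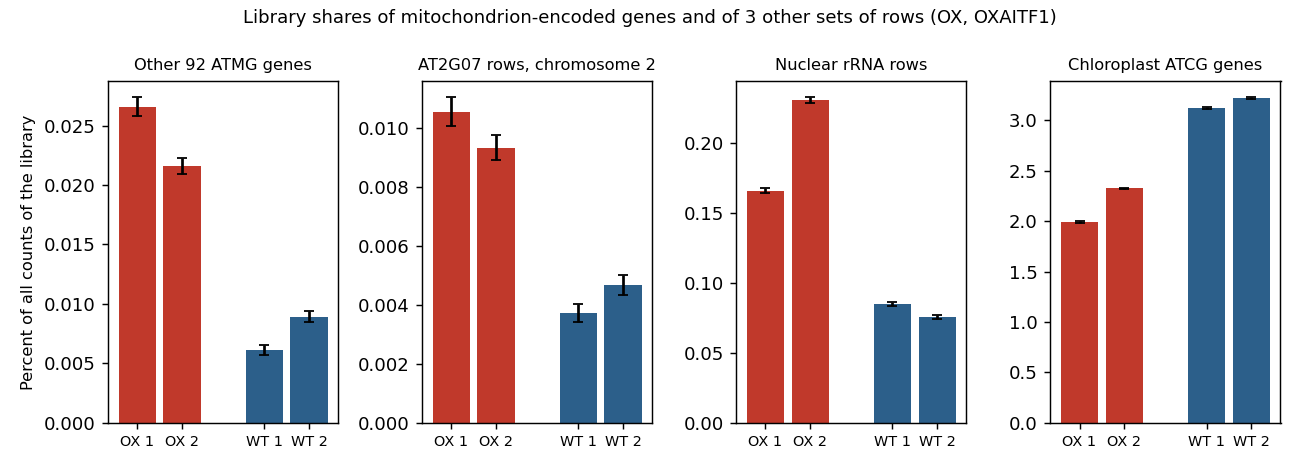
Bars give the percent of all counts of each library (y axis, each panel with its own range from 0) for the other 92 mitochondrion-encoded genes, the AT2G07 rows of chromosome 2 without ABCC13 and MCM5, the nuclear ribosomal RNA rows and the chloroplast-encoded genes, with OXAITF1 in red (OX) and WT in blue and exact 95% binomial whiskers. The first 3 sets were higher in both OXAITF1 libraries than in both WT libraries, and the chloroplast-encoded genes were lower.

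Nuclear genes for the parts of mitochondria that the organelle does not encode were called in both directions, as were genes of the whole table. Of 41 nuclear genes of the respiratory chain and ATP synthase, all tested, 2 were called higher and 4 lower. Neither share was above the 9.36% and 10.4% of all genes. A log2 fold change below 0 was found for 34, against 8877 of all 18639 genes tested. The median was -0.34, against 0.05 over all genes tested. In the edgeR test 17 of the 41 had an unadjusted p under 0.05, against 38.9% of all genes tested. COX15, an assembly factor of complex IV, had 13.1 and 13.2 CPM in OXAITF1 and 5.30 and 5.34 CPM in WT, with no overlap and a log2 fold change of 1.30 ± 0.17. GAMMA CAL2, a carbonic anhydrase-like protein of complex I, was the other higher one (0.64 ± 0.15). ATP3, the gamma subunit of mitochondrial ATP synthase, had 123 and 118 CPM in OXAITF1 and 214 and 210 CPM in WT (-0.81 ± 0.14), and the delta subunit AT5G47030 had 111 and 118 against 191 and 193 (-0.74 ± 0.14). SDH2-1, an iron-sulphur subunit of complex II, had 23.8 and 26.3 CPM against 45.4 and 45.6 CPM (-0.86 ± 0.13), and the complex I subunit GAMMA CA3 was also lower (-0.67 ± 0.13). Their adjusted p-values lay between 0.0191 for COX15 and 0.0485 for GAMMA CAL2.

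For transcription and RNA processing in mitochondria, 4 of 18 nuclear genes were called higher and 0 lower, where 9.36% and 10.4% of all genes were. A log2 fold change above 0 was found for 16 (median 0.47), against 9762 of all 18639 genes tested. RUG3, which is needed for complex I to accumulate, had 9.33 and 10.5 CPM in OXAITF1 and 1.79 and 2.67 CPM in WT, without overlap (2.15 ± 0.28, adjusted p 0.0183). AT5G15700, an RNA polymerase found in mitochondria and chloroplasts, had 14.5 and 14.6 CPM against 6.72 and 7.45 CPM (1.04 ± 0.17, adjusted p 0.0258). AT5G46920, an intron maturase, had 15.8 and 15.1 CPM against 6.80 and 8.15 CPM, and PMH1, a mitochondrial RNA helicase, was the fourth, at 0.83 ± 0.17.

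Of 8 genes that maintain mitochondrial DNA, 2 were called higher and 1 lower, with a median log2 fold change of -0.12. POLGAMMA1, an organellar DNA polymerase, had 40.5 and 42.8 CPM in OXAITF1 and 19.4 and 21.2 CPM in WT (1.04 ± 0.14). ATWHY2, a single-stranded DNA-binding protein of the organelle, had 19.0 and 17.9 against 9.64 and 8.65 CPM (1.01 ± 0.16). MTSSB, another single-stranded DNA-binding protein, had 1.12 and 0.782 CPM in OXAITF1 and 3.89 and 3.94 CPM in WT (-2.04 ± 0.33, adjusted p 0.0249). The groups of each of these 3 genes stood apart. Shares called in the 3 lists compare with 9.36% higher and 10.4% lower over all genes, and with library totals in place of TMM no gene of the respiratory chain list was called lower.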

How the data were processed

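Read counts per gene were deposited by the authors as whole numbers that were not normalized, in a table of the 4 leaf libraries and in one file per library, which held the same values. The tools listed in the submitters' processing notes are HISAT2 2.1.0, featureCounts and Subread 1.6.5, with the TAIR10 build. The strand setting, the treatment of reads with several matches and the RNA selection were not stated in the labels or files. Mitochondrial loci could not be placed on the reference used here (TAIR10.1, whose mitochondrial record uses other identifiers for all 94), so no position or sequence is given, and names came from its notes. Symbols of nuclear genes came from the same annotation, which matched 23057 of 23318 rows.

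Counts were tested with edgeR 4.0.16 in R 4.3.3 (filterByExpr, TMM, glmQLFit, glmQLFTest, two-sided, Benjamini-Hochberg over the 18639 genes tested, call at an adjusted p under 0.05). The groups came from the labels, and the fit had 2 residual degrees of freedom. A second fit of the same genes used the ATMG total as library size. Standard errors were derived from the F statistics. Levels are TMM-scaled CPM and are not per gene length, so genes were not ranked by level. One count was worth 0.0516 to 0.0654 CPM before scaling. Intervals on shares are exact binomial at 95%, and they and the floor of 3 counts cover counting error only. Alternatives were library totals, RLE factors, TMM from nuclear genes, DESeq2 1.42.0, other filters, a replicate block and leaving out each library, and the script was tested on simulated data. Same-numbered libraries had deviations correlated at r = -0.13, a single value from 2 pairs, so pairing could not be decided.

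Members, lists and rules were chosen with earlier results of these data known. Genes given with values in every library are, per class, the one with most counts and the called ones with the largest change, the 6 highest called and the 6 with most counts. Annotated members and up to 3 called genes in each direction of each nuclear list were also named. ATMG00720 among the 6 highest is given by counts, and ATMG00030, ATMG00100, ATMG00010, ATMG00260, ATMG01410, ATMG01350 and the AT2G07 rows outside the rule were named after their values were seen.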

Additional observations from a re-analysis of the deposited data

How the results depend on the processing

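Against 12 genes called higher and 0 lower, library totals alone gave 21 higher, where 28.4% of all genes were called higher and 6.05% lower. The stricter filter of 10 CPM gave 4 higher and 1 lower of 7 tested, where 14.4% and 15.1% of all genes were called. The replicate block gave 0, among all genes as well. RLE factors and DESeq2 each gave 1 lower, where 10.6% and 13.0% of all genes were called lower. Leaving out a library gave 0 to 11 higher and 0 to 2 lower. The median log2 fold change of the tested members, 1.36, was 1.77 with library totals and 1.79 with no filter, and 1.25 to 1.93 with a library left out. RLE factors and TMM factors from nuclear genes kept the same 12 calls, DESeq2 kept 10 and no filter kept 9. Of all genes, 8.71%, 9.28%, 11.1% and 6.96% were called higher under these 4 settings, in this order. Crossed replicate numbers in the block gave 9 higher, 8 of them among the 12, where 8.62% of all genes were called higher. The ratio of ATMG shares, 1.45, was 1.08 on the TMM scale, 2.48 without the member with most counts and 3.20 without the 2 with most, and 1.26 to 1.69 with a library left out.

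Relative to the ATMG total, 13 higher and 1 lower became 5 and 4 without ATMG00020 in the total and 4 and 6 without the 2 largest. Of all genes, 51.0% and 60.5% were called lower with these 2 totals. The calls became 5 and 6 with TMM factors over ATMG rows, where 3.17% of all genes were called higher and 60.3% lower. With the replicate block they became 7 and 0, where 5.18% and 6.65% of all genes were called. ATMG01390 turned to -0.68, -1.07 and -0.95 under the first 3 of these and ran between -0.15 and 0.35 with a library left out. ATMG01330, 0.03 on the CPM scale, ran between -0.33 and 0.51 with a library left out.

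Of the respiratory chain list, 2 higher and 4 lower became 0 lower with library totals, 1 higher with RLE factors, with no filter and with crossed numbers, 8 lower with DESeq2, 0 and 0 with the replicate block, and 0 to 2 higher and 0 to 21 lower with a library left out. Of the transcription list, 4 higher became 7 with library totals, 0 with the block and 0 to 6 with a library left out. Of the DNA maintenance list, 2 higher and 1 lower became 0 and 0 with the block, 0 lower with the stricter filter, and 0 to 2 and 0 to 1 with a library left out. Of the AT2G07 rows, 6 higher and 1 lower became 10 and 0 with library totals, 2 higher with no filter and with crossed numbers, 1 higher with the stricter filter, 0 and 0 with the block, 0 lower without ABCC13 and MCM5, and 0 to 4 and 0 to 2 with a library left out. These counts are to be read beside the shares of all genes called under the same settings, given above. The cause of these shifts was not tested. Alternatives without mitochondrial ribosomal RNA rows were not run, because no source used here says which ATMG rows those are. Crossed numbers, leaving out ABCC13 and MCM5, the nuclear ribosomal RNA rows or the 2 largest members were chosen after seeing the data. Depth limits 54 of the 94 genes to a description.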
